A study of Homo sapiens with 12 samples.

Results

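The 10 genes described here are chemokines, cytokines and feedback inhibitors that the transcription factor NF-kappaB is known to switch on: *CXCL1*, *CXCL2*, *CXCL3*, *CXCL8*, *CCL2*, *CCL20*, *IL1A*, *IL1B*, *NFKBIA* and *TNFAIP3*. They were taken by symbol from the 18417 genes that carry a feature with a single gene symbol, and all 10 were measured, each by 1 probe set. Expression was profiled in Calu-6, a human lung cancer cell line, on 12 Affymetrix arrays in 4 groups of 3 biological replicates, each an independent transfection. Cells received a pool of siRNAs against *LAPTM4B* (siLAPTM4B), which encodes a transmembrane protein of lysosomes, or scrambled siRNA (siControl), both with Lipofectamine RNAiMAX, and on the following day were moved to medium without serum or kept with 10% fetal bovine serum (FBS). The groups were siLAPTM4B at 0% FBS, siControl at 0% FBS, siLAPTM4B at 10% FBS and siControl at 10% FBS, and RNA was isolated 72 h after transfection, 48 h into the new medium. All 4 groups share the line, the transfection reagent and the time, and there was no untransfected group, so the comparisons hold for 1 cell line and 1 siRNA pool.

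In resting cells NF-kappaB dimers such as RELA with NFKB1 are held in the cytoplasm by IkappaB proteins. Signals from IL-1, TNF or Toll-like receptors activate the IKK kinases, IkappaB is degraded, and NF-kappaB enters the nucleus and binds short sites upstream of its targets. The targets include ligands that call in neutrophils (*CXCL1*, *CXCL2*, *CXCL3* and *CXCL8*), monocytes (*CCL2*) and CCR6-bearing lymphocytes and dendritic cells (*CCL20*), and the cytokines IL-1 alpha and IL-1 beta, which activate NF-kappaB again. They also include *NFKBIA*, which encodes IkappaB alpha, and *TNFAIP3*, which encodes the ubiquitin-editing enzyme A20, and both proteins shut the pathway off. In lung tumors CXCL8 and the CXCL1 to CXCL3 group are known as ligands of CXCR2 that attract neutrophils and promote blood vessel growth.

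The promoters shown are those of the members with a match to the NF-kappaB consensus, or to the core named here, close to the start of transcription. Those of *IL1A* and *IL1B* held no such match and are not shown. Each line gives the 120 bases before the start in the direction of the gene, from RefSeq on GRCh38.p14, and capitals mark matches to the NF-kappaB consensus or to the core GGAATTTCC that CXCL1, CXCL2, CXCL3 and CXCL8 share (read as GGAAATTCC on the other strand).
CXCL1: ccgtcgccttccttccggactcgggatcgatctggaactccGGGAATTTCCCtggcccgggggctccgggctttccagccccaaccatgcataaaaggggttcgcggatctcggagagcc
CXCL2: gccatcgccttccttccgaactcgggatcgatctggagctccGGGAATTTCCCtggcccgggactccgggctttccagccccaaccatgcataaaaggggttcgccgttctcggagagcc
CXCL3: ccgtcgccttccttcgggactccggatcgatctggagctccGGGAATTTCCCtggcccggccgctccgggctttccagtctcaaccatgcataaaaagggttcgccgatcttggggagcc
CXCL8: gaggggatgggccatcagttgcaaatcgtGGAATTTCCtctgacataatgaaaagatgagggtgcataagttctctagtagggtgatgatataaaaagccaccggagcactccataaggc
CCL20: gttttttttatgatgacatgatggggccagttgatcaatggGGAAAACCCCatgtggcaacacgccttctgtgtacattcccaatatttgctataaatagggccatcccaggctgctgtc
NFKBIA: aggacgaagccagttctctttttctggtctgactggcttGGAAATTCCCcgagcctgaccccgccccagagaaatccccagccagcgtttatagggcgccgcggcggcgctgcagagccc
TNFAIP3: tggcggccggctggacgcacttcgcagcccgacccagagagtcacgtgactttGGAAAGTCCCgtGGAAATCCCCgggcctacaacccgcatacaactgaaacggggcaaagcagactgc
The windows lie at chr4:73869273-73869392 on the plus strand for *CXCL1*, chr4:74099196-74099315 on the minus strand for *CXCL2*, chr4:74038690-74038809 on the minus strand for *CXCL3* and chr4:73740449-73740568 on the plus strand for *CXCL8*. Those of *CCL20*, *NFKBIA* and *TNFAIP3* are chr2:227813722-227813841 on the plus strand, chr14:35404750-35404869 on the minus strand and chr6:137867139-137867258 on the plus strand.

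The consensus was searched on both strands of the 250 bases before the start, in the 9 of 10 members that have a promoter entry (*CCL2* has none here). It was found in 6 of the members (*CXCL1*, *CXCL2*, *CXCL3*, *CCL20*, *NFKBIA* and *TNFAIP3*), and 9.96% of the 35116 RefSeq promoters hold a match. The core, which was chosen because the site of *CXCL8* was known and which lies inside the consensus matches of the other genes that have it, was found in 5 members (*CXCL1*, *CXCL2*, *CXCL3*, *CXCL8* and *NFKBIA*), against 0.413% of the promoters. In *CXCL1* and *CXCL3* the core started 78 bases before the start of transcription, in *CXCL2* 77 bases before it and in *CXCL8* 91 bases before it. Around this core *CXCL1*, *CXCL2* and *CXCL3* are nearly the same sequence: of 69 bases compared without gaps, 62 were identical between *CXCL1* and *CXCL3*, 56 between *CXCL1* and *CXCL2* and 52 between *CXCL2* and *CXCL3*, whereas *CXCL8* shared 25 or 26 with each of them. The 69 bases are the core and 30 bases on each side, so every count includes the 9 bases of the core, on which the sequences were aligned. The AP-1 motif TGANTCA was found in *CXCL8*, 137 bases before its start, and in *IL1A*, against 6.57% of the promoters. These matches describe the letters only, and binding was not measured.

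*LAPTM4B* itself was lower after its siRNA in both media. Its level was 10.49 ± 0.045 in siLAPTM4B cells and 11.91 ± 0.037 in siControl cells without serum (log2, SD, n = 3 each). The log2 fold change was -1.42 (limma, adjusted p = 8.6e-06). With 10% FBS it was 10.01 ± 0.024 in siLAPTM4B cells and 11.77 ± 0.024 in siControl cells, a log2 fold change of -1.75 (adjusted p = 6.4e-07). All values are log2 RMA signals, which ran between 3.37 and 14.8, with array medians between 8.46 and 8.48 and lower quartiles between 6.83 and 6.92. The keratins *KRT8* and *KRT18* were high on every array (12.76 to 12.99 and 12.14 to 12.35), the epithelial cadherin *CDH1* was between 6.10 and 6.29, and the leukocyte marker *PTPRC* was between 5.19 and 5.31. Other genes of the leukocyte list were brighter, with *CD68*, a lysosomal protein that is not confined to leukocytes, between 9.94 and 10.69 and *LYZ*, lysozyme, between 8.99 and 9.73, and 2 of the 7 had means under the lower quartile. Summed over 7 leukocyte markers, the log2 level lay between 52.6 and 53.8 on all arrays. The summed level of 7 fibroblast markers was 51.7 to 52.2 in siLAPTM4B cells and 52.4 to 52.7 in siControl cells without serum, and 54.4 to 54.8 in siLAPTM4B cells and 55.0 to 55.6 in siControl cells with 10% FBS, and its part in the results below was not tested. The 6 epithelial markers summed to 58.3 to 58.4 in siLAPTM4B cells and 58.2 to 58.5 in siControl cells without serum, and to 59.2 to 59.5 in siLAPTM4B cells and 58.6 to 58.9 in siControl cells with 10% FBS, which was not tested either. Of these lists, *LUM* and *PDGFRB* were called lower after knockdown without serum (-0.50 and -0.39) and with 10% FBS (-0.52 and -0.35), *KRT7* was called lower without serum (-0.37) and *EPCAM* was called higher with 10% FBS (0.51). The 4 endothelial markers summed to between 26.5 and 27.2 on all arrays.

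The signal of the members set what could be measured. The mean of *NFKBIA* over the 12 arrays stood at percentile 87.2 of the feature means, that of *CXCL1* at 52.1 and that of *CXCL8* at 46.3. The means of 5 members were under the lower quartile of the feature means, and *CCL20*, *IL1A* and *IL1B* stayed below the lower quartile on every array, so a change in these genes rests on dim signals. Probe sets differ in how well they bind, so these percentiles do not rank the transcripts.

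**Figure D1:**
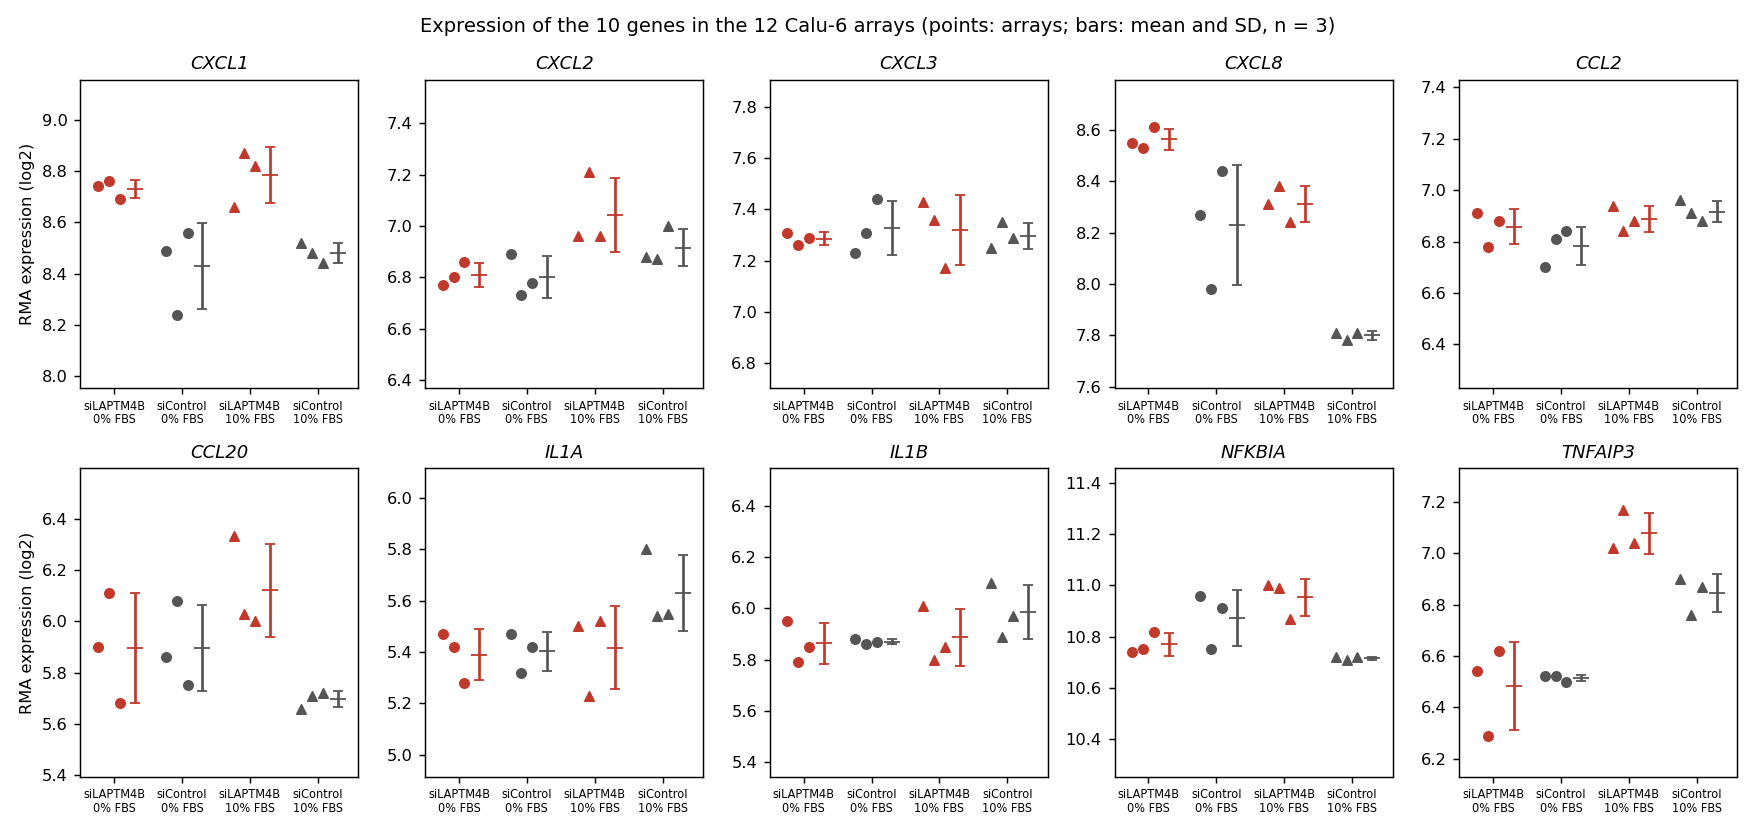
RMA expression (log2) of each of the 10 genes on the 12 arrays, with siLAPTM4B in red and siControl in grey, circles for 0% FBS, triangles for 10% FBS, and bars for the mean and SD of 3 arrays. The panels share 1 span but start at different values; in the *CXCL8* panel the siControl arrays with 10% FBS lie between 7.78 and 7.81 and all siLAPTM4B arrays lie at 8.24 or above.

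The first question was what *LAPTM4B* knockdown does to these genes in each medium. With 10% FBS, 4 of the 10 genes were higher in siLAPTM4B cells and none was lower at an adjusted p under 0.05 (*CXCL8*, *CCL20*, *CXCL1* and *NFKBIA*), where 4.08% of the 19460 features were called in either direction and 1.99% were called higher. The median log2 fold change of the members was 0.18, against 0.0043 over all features. Without serum 0 of the 10 genes were called by limma, where 2.33% of all features were, and 2 of the 10 (*CXCL1* and *CXCL8*, both higher) had an unadjusted p under 0.05, where 6.47% of the features did so in that direction. By the methods' t-test, adjusted in the same way, 0 members were called without serum, where 27 of the 19460 features were. With 10% FBS it called 1 member, *CXCL8*, and 177 of the features. At an unadjusted p under 0.01, the threshold in the study's methods, 2 members passed without serum by limma (*CXCL1* and *CXCL8*). Of all features 1291 did so. With 10% FBS 5 members passed, against 1574 features. The median over the members without serum was -0.0021, against 0.0068 over all features. In RNA from whole cultures a change in RNA per cell and a change in the share of cells that express a gene cannot be told apart.

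*CXCL8*, the neutrophil attractant interleukin 8, showed the largest difference of the 10 genes after knockdown. Without serum it was 8.55, 8.53 and 8.61 in siLAPTM4B cells and 8.27, 7.98 and 8.44 in siControl cells. With 10% FBS it was 8.31, 8.38 and 8.24 in siLAPTM4B cells and 7.81, 7.78 and 7.81 in siControl cells. In both media every siLAPTM4B array was above every siControl array, and the siControl arrays without serum were spread far more widely than those with 10% FBS. The log2 fold change with 10% FBS was 0.51 (SE 0.05, 95% interval 0.40 to 0.63), which is 1.43-fold higher in siLAPTM4B cells (limma, adjusted p = 0.0018). Without serum it was 0.34 (SE 0.10, 95% interval 0.11 to 0.56, adjusted p = 0.15), and without the lowest siControl array, replicate 2, it was 0.21 (adjusted p = 0.24). The value without serum passed the threshold in 1 of 14 alternatives that kept the adjusted threshold. It was a robust prior variance that follows intensity (limma, adjusted p = 0.042). With the replicate block the adjusted p without serum was 0.051 (limma). The unadjusted p of the main fit was 0.0092 (limma), under the 0.01 that the study used. With 10% FBS the call held when any 1 array was left out and in every other alternative, with adjusted p between 0.00016 and 0.037.

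*CXCL1*, which encodes a ligand of CXCR2, was called higher after knockdown with 10% FBS and had the same fold change without serum. Its levels without serum were 8.74, 8.76 and 8.69 in siLAPTM4B cells and 8.49, 8.24 and 8.56 in siControl cells. With 10% FBS they were 8.66, 8.87 and 8.82 in siLAPTM4B cells and 8.52, 8.48 and 8.44 in siControl cells. All siLAPTM4B arrays were above all siControl arrays in each medium, and again siControl replicate 2 was the lowest array without serum. The log2 fold change was 0.30 with 10% FBS (SE 0.06, 95% interval 0.16 to 0.44, adjusted p = 0.032) and 0.30 without serum (SE 0.08, 95% interval 0.12 to 0.48, adjusted p = 0.10). Leaving out siControl replicate 2 gave 0.21 without serum (adjusted p = 0.17). The value without serum passed the threshold in 2 of 14 alternatives. These were a robust prior variance that follows intensity (limma, adjusted p = 0.019) and all 12 arrays in 1 fit (adjusted p = 0.047).

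The close relatives of *CXCL1* were not called in either medium. *CXCL2* was 6.77, 6.80 and 6.86 in siLAPTM4B cells and 6.89, 6.73 and 6.78 in siControl cells without serum, and 6.96, 7.21 and 6.96 in siLAPTM4B cells and 6.88, 6.87 and 7.00 in siControl cells with 10% FBS. The groups overlapped in both media, with log2 fold changes of 0.01 (95% interval -0.12 to 0.13) without serum and 0.12 (95% interval -0.05 to 0.29) with 10% FBS. *CXCL3* lay between 7.17 and 7.44 on all 12 arrays, with overlapping groups and log2 fold changes of -0.05 without serum (95% interval -0.18 to 0.09) and 0.02 with 10% FBS (95% interval -0.13 to 0.18). Both genes had adjusted p of at least 0.46 in these comparisons. *CXCL1*, *CXCL2* and *CXCL3* are close paralogs, and array probes can pick up transcripts of the others, so the split of signal between them is uncertain.

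Of the CC chemokines, *CCL20*, the ligand of CCR6, was higher after knockdown with 10% FBS. It was 6.33, 6.03 and 6.0 in siLAPTM4B cells and 5.66, 5.71 and 5.72 in siControl cells with 10% FBS, and the groups did not overlap. Without serum it was 5.90, 6.11 and 5.68 in siLAPTM4B cells and 5.86, 6.08 and 5.75 in siControl cells, where the groups were interleaved. The log2 fold change with 10% FBS was 0.42 (SE 0.08, 95% interval 0.23 to 0.61, 1.34-fold, adjusted p = 0.030), and without serum it was 0.00 (95% interval -0.26 to 0.26, adjusted p = 1). *CCL2*, the ligand of CCR2, lay between 6.70 and 6.96 on all arrays and its groups overlapped in both media. Its log2 fold change was 0.08 without serum (95% interval -0.05 to 0.20) and -0.03 with 10% FBS (95% interval -0.14 to 0.08).

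The IL-1 genes were among the dimmest members, and neither was called. *IL1A* was 5.50, 5.23 and 5.52 in siLAPTM4B cells and 5.80, 5.54 and 5.55 in siControl cells with 10% FBS, with the siLAPTM4B arrays just below the siControl arrays (log2 fold change -0.21, adjusted p = 0.28). Without serum *IL1A* was 5.47, 5.42 and 5.28 in siLAPTM4B cells and 5.47, 5.32 and 5.42 in siControl cells, and the groups overlapped (log2 fold change -0.01, adjusted p = 0.96). *IL1B* stayed between 5.79 and 6.10 on all arrays, with log2 fold changes of -0.01 without serum (95% interval -0.12 to 0.11) and -0.09 with 10% FBS (95% interval -0.26 to 0.07).

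Of the feedback inhibitors, *NFKBIA* was called higher after knockdown with 10% FBS only. With 10% FBS it was 11.00, 10.99 and 10.87 in siLAPTM4B cells and 10.72, 10.71 and 10.72 in siControl cells, with no overlap. Without serum it was 10.74, 10.75 and 10.82 in siLAPTM4B cells and 10.96, 10.75 and 10.91 in siControl cells, where siLAPTM4B arrays lay lower on average and the groups overlapped. The log2 fold change was 0.24 with 10% FBS (SE 0.05, 95% interval 0.12 to 0.35, 1.18-fold, adjusted p = 0.037) and -0.11 without serum (95% interval -0.25 to 0.03, adjusted p = 0.48). *TNFAIP3* was 7.02, 7.17 and 7.04 in siLAPTM4B cells and 6.90, 6.76 and 6.87 in siControl cells with 10% FBS. These groups did not overlap, but the log2 fold change of 0.23 (SE 0.06, 95% interval 0.10 to 0.37) did not pass the threshold (adjusted p = 0.074). Without serum *TNFAIP3* was 6.54, 6.29 and 6.62 in siLAPTM4B cells and 6.52, 6.52 and 6.50 in siControl cells, with siControl inside the range of siLAPTM4B (log2 fold change -0.03, adjusted p = 0.90).

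With 10% FBS 5 of the 10 genes had every siLAPTM4B array above every siControl array and 1, *IL1A*, had every one below, where 12.9% and 11.6% of all features did so. Without serum the count was 2 above and 0 below, against 9.72% and 11.6%. For such genes the exact permutation test gives a two-sided p of 0.1, the smallest that 3 arrays against 3 allow. The calls with 10% FBS other than *CXCL8* were each lost in 5 of 6 fits that left out 1 array, while their fold changes kept their sign. These ranged from 0.261 to 0.364 for *CXCL1*, from 0.318 to 0.484 for *CCL20* and from 0.216 to 0.28 for *NFKBIA*. Over all features the 793 calls became 228 to 482 in these fits. Only *CXCL8* stayed called without siControl replicate 1, 2 or 3 or without siLAPTM4B replicate 2, when *CXCL1* had adjusted p between 0.055 and 0.12, *CCL20* between 0.051 and 0.10 and *NFKBIA* between 0.089 and 0.15. Without siLAPTM4B replicate 3 the calls were *CXCL8* and *NFKBIA*, since *CXCL1* had an adjusted p of 0.12 and *CCL20* of 0.057. Without siLAPTM4B replicate 1 only *NFKBIA* was lost (adjusted p = 0.091).

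**Figure D2:**
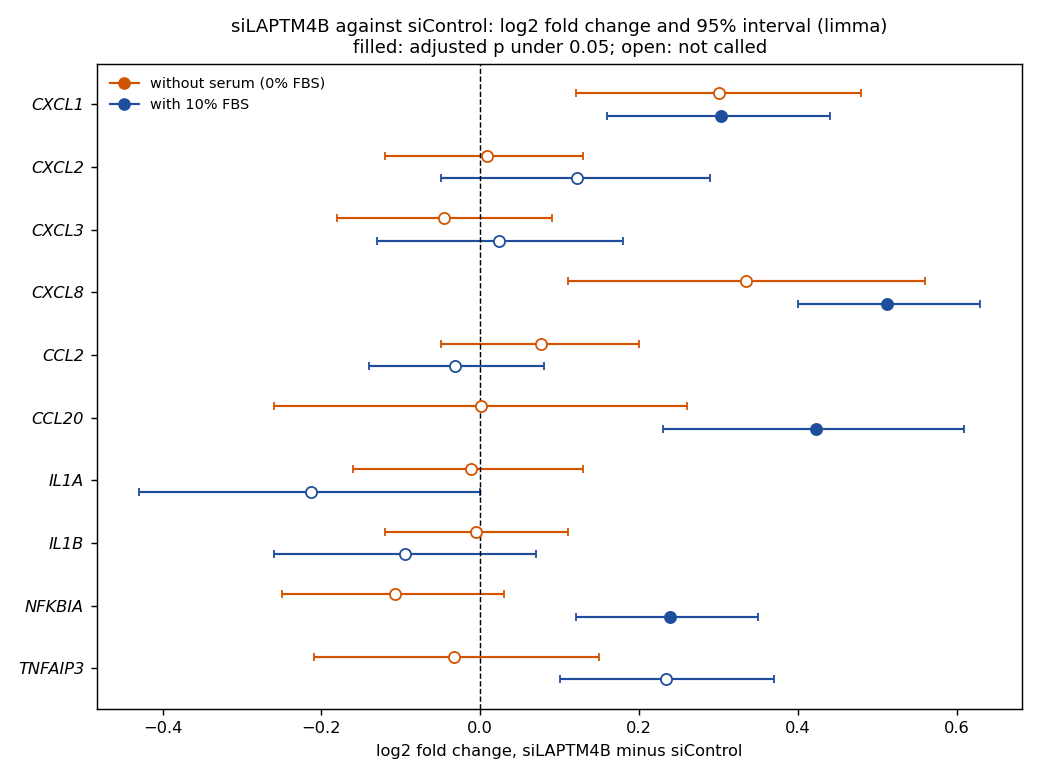
Log2 fold change of siLAPTM4B over siControl for the 10 genes without serum (orange) and with 10% FBS (blue), with 95% intervals from limma on 6 arrays each; filled points have an adjusted p under 0.05. With 10% FBS *CXCL8*, *CCL20*, *CXCL1* and *NFKBIA* are filled and to the right of 0, and no point without serum is filled.

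The knockdown effects in the 2 media were compared directly by an interaction term over the 12 arrays, as the effect without serum minus that with 10% FBS. By limma 0 of the 10 genes were called, where 0.262% of all features were, and 3 had an unadjusted p under 0.05, all negative, where 6.49% of the features did so in that direction. The most negative values were those of *CCL20*, at -0.42 (SE 0.16, 95% interval -0.77 to -0.08, adjusted p = 0.35), and *NFKBIA*, at -0.35 (SE 0.08, 95% interval -0.52 to -0.17, adjusted p = 0.11). *TNFAIP3* had -0.27 (95% interval -0.50 to -0.04, adjusted p = 0.38). When the prior variance followed intensity and was fitted robustly, *NFKBIA* passed the threshold (adjusted p = 0.014). For *CXCL8* the difference was -0.18 (95% interval -0.44 to 0.08, adjusted p = 0.63) and for *CXCL1* it was 0.00 (95% interval -0.23 to 0.23). The calls with 10% FBS and their absence without serum do not by themselves show a difference between the media.

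The second question was what the loss of serum does to the same genes under each siRNA. These comparisons use the same 12 arrays as those above and share each group with 1 of them. In siLAPTM4B cells 1 member was higher without serum (*CXCL8*) and 2 were lower (*TNFAIP3* and *NFKBIA*), where 9.74% of all features were called higher and 11% lower. In siControl cells 1 was higher (*CXCL8*) and 1 lower (*TNFAIP3*), where 13.2% of all features were called higher and 12.9% lower. A share of 3 of 10 against 20.7% of all features, and of 2 of 10 against 26%, is close to the background.

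*CXCL8* was higher without serum under both siRNAs. In siLAPTM4B cells the arrays at 8.53 to 8.61 without serum were above those at 8.24 to 8.38 with 10% FBS, a log2 fold change of 0.25 (SE 0.05, 95% interval 0.13 to 0.37, adjusted p = 0.0089). In siControl cells the arrays at 7.98 to 8.44 without serum were above those at 7.78 to 7.81 with 10% FBS, a log2 fold change of 0.43 (SE 0.10, 95% interval 0.20 to 0.66, adjusted p = 0.014). By the methods' t-test the siControl value was not called (adjusted p = 0.11).

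*TNFAIP3* fell without serum under both siRNAs. In siLAPTM4B cells it was 6.29 to 6.62 without serum and 7.02 to 7.17 with 10% FBS, a log2 fold change of -0.60 (SE 0.09, 95% interval -0.79 to -0.40, adjusted p = 0.00095). In siControl cells it was 6.50 to 6.52 without serum and 6.76 to 6.90 with 10% FBS, a log2 fold change of -0.33 (SE 0.05, 95% interval -0.44 to -0.22, adjusted p = 0.0014). Neither pair of groups overlapped. The levels of *TNFAIP3* without serum lay below the lower quartile of every array (6.83 or above), so both differences may be understated. The inhibitor *NFKBIA* had opposite signs under the siRNAs. It was 10.74 to 10.82 without serum and 10.87 to 11.00 with 10% FBS in siLAPTM4B cells (log2 fold change -0.19, SE 0.06, adjusted p = 0.038), and 10.75 to 10.96 without serum and 10.71 to 10.72 with 10% FBS in siControl cells (log2 fold change 0.16, SE 0.06, adjusted p = 0.085). The siLAPTM4B call was lost without any 1 of 5 arrays, namely replicate 1, 2 or 3 at 0% FBS and replicate 1 or 2 at 10% FBS (adjusted p between 0.052 and 0.13), as well as with p adjusted over all features (0.081) and by the methods' t-test (0.088), and the siControl value passed without siControl replicate 2 at 0% FBS (0.22, adjusted p = 0.018). The difference between these values is the interaction of -0.35 given above, which was not called.

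None of the other ligands was called on serum withdrawal. *CXCL1* had log2 fold changes of -0.06 in siLAPTM4B cells (95% interval -0.19 to 0.08) and -0.05 in siControl cells (95% interval -0.23 to 0.13). *CXCL2* was lower without serum on every siLAPTM4B array, with a log2 fold change of -0.23 (95% interval -0.39 to -0.07, adjusted p = 0.053), and had -0.12 in siControl cells (adjusted p = 0.19). The siLAPTM4B value lay at the threshold and passed it in 6 alternatives, with adjusted p between 0.027 and 0.050. *CCL20* gave -0.22 in siLAPTM4B cells (95% interval -0.48 to 0.04, adjusted p = 0.23) and 0.20 in siControl cells (95% interval 0.02 to 0.38, adjusted p = 0.10), and the siControl value passed the threshold without replicate 3 at 0% FBS (0.27, adjusted p = 0.032). *IL1A* was below its level with 10% FBS on every siControl array without serum, with a log2 fold change of -0.23 (95% interval -0.40 to -0.05, adjusted p = 0.064), and the replicate block brought it past the threshold (adjusted p = 0.014). In siLAPTM4B cells *IL1A* gave -0.02 (95% interval -0.21 to 0.16). *CCL2*, *CXCL3* and *IL1B* had values between -0.13 and 0.03 under both siRNAs, with adjusted p of at least 0.092. Without overlap between the media, 1 member was higher and 3 were lower without serum in siLAPTM4B cells, and 3 were higher and 4 lower in siControl cells, where 16.4%, 19.7%, 19.5% and 21.6% of all features did so.

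**Figure D3:**
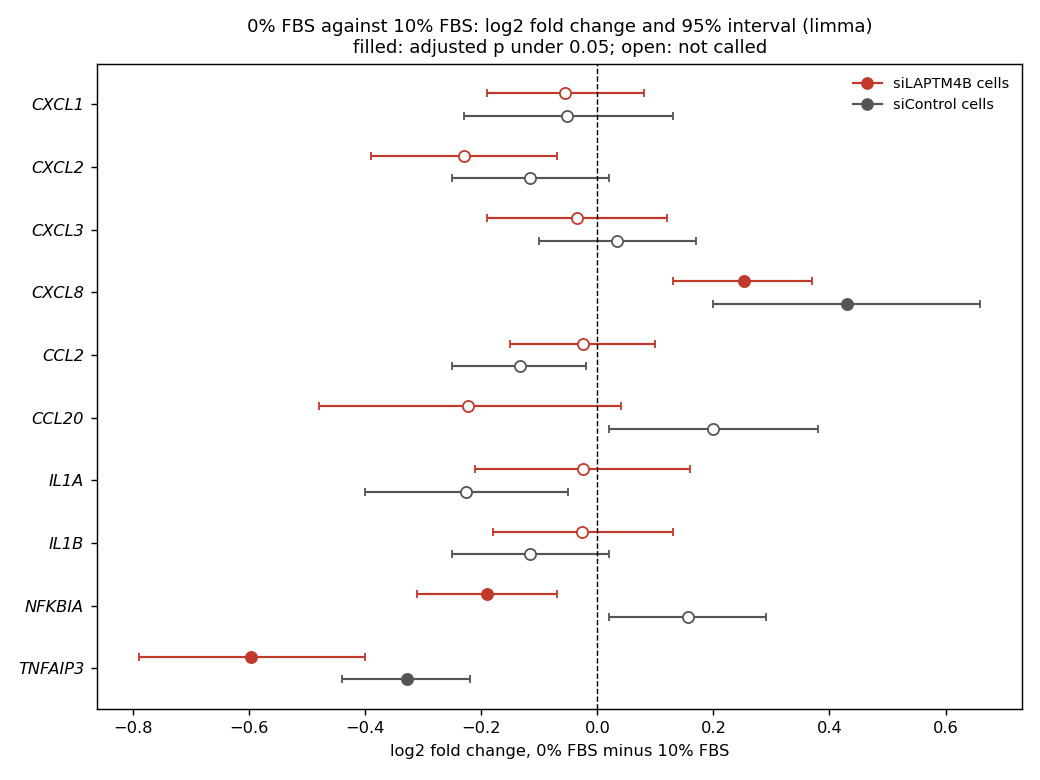
Log2 fold change of 0% FBS over 10% FBS for the 10 genes in siLAPTM4B cells (red) and siControl cells (grey), with 95% intervals from limma on 6 arrays each; filled points have an adjusted p under 0.05. *CXCL8* is filled to the right of 0 and *TNFAIP3* to the left of 0 under both siRNAs, and *NFKBIA* is filled only in siLAPTM4B cells, at -0.19.

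Across the 4 groups the means of *CXCL8* spanned 0.77 on the log2 scale, those of *TNFAIP3* 0.60, those of *CCL20* 0.42 and those of *CXCL1* 0.36, and the other members spanned between 0.05 (*CXCL3*) and 0.24. The order of *CXCL8*, from low to high, was siControl with 10% FBS, siControl without serum, siLAPTM4B with 10% FBS and siLAPTM4B without serum, and only the middle pair of neighbours overlapped. For *TNFAIP3* it was siLAPTM4B without serum, siControl without serum, siControl with 10% FBS and siLAPTM4B with 10% FBS, where the neighbours without serum overlapped and the others did not. For *CXCL1* both siControl groups lay below both siLAPTM4B groups, with overlap between the media under each siRNA. *CCL20*, *CXCL3*, *CCL2* and *IL1B* had no neighbours in their order that stood apart, and *CXCL2*, *IL1A* and *NFKBIA* had 1 such pair each.

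Genes that act on or beside the members were read from lists of the pathway. Their counts stand against 2.33% of all features called after knockdown without serum and 4.08% called with 10% FBS. At an unadjusted p under 0.05 the background was 2938 of the 19460 features without serum and 3549 with 10% FBS (1899 higher and 1650 lower). By the methods' t-test it was 27 features without serum and 177 with 10% FBS. Of 14 measured NF-kappaB subunits and IKK kinases, 0 were called by limma after knockdown in either medium, with 0 at an unadjusted p under 0.05 without serum, 1 higher and 1 lower with 10% FBS, and 0 by the methods' t-test. *RELA*, the main activating subunit, was 10.47 ± 0.013 in siLAPTM4B cells and 10.45 ± 0.052 in siControl cells without serum, and 10.61 ± 0.11 in siLAPTM4B cells and 10.59 ± 0.038 in siControl cells with 10% FBS. Of 17 other inhibitors and feedback genes, 1 fell after knockdown without serum: *NFKBIZ*, the nuclear IkappaB zeta, by 0.31 on the log2 scale (adjusted p = 0.019). With 10% FBS 0 of the 17 were called, 3 had an unadjusted p under 0.05 and 0 were called by the methods' t-test.

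Of 10 receptors of the members, 7 had means under the lower quartile. The neutrophil receptors *CXCR1* and *CXCR2* lay between 5.65 and 5.92 and between 5.58 and 5.80, the CCL2 receptor *CCR2* between 5.66 and 5.93, and the IL-1 receptor *IL1R1* between 5.33 and 5.55. *SIGIRR*, an inhibitory receptor of the IL-1 family, was higher after knockdown in both media, with a log2 fold change of 0.35 in each (adjusted p = 0.013 without serum, 0.037 with 10% FBS). *IL1RAP*, the accessory chain through which the IL-1 receptor signals, fell by 0.44 without serum (adjusted p = 0.0090). With 10% FBS *IL1RAP* was not called, but every siLAPTM4B array (7.72 to 7.99) was below every siControl array (8.03 to 8.21). Of 22 receptors and adaptors of IL-1, TNF and Toll-like receptor signaling, 2 were higher after knockdown with 10% FBS, where 1.99% of all features were: *IRAK2*, a kinase that relays IL-1 signals, with a log2 fold change of 0.28 (adjusted p = 0.014), and *TLR4*, the endotoxin receptor, with 0.23 (adjusted p = 0.037). Without serum 0 of the 22 were called, 1 had an unadjusted p under 0.05 and 0 were called by the methods' t-test.

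Among the other known targets the calls after knockdown went in both directions. Of 31 other chemokines and cytokines, 1 fell after knockdown in each medium. It was *LIF*, a cytokine of the IL-6 family, without serum (log2 fold change -0.35, adjusted p = 0.024) and *TNFSF10*, which encodes the death ligand TRAIL, with 10% FBS (-1.09, adjusted p = 0.0011). Of 30 other targets, *PTGS2*, the inducible cyclooxygenase, fell in both media. It was 8.98 ± 0.15 in siLAPTM4B cells and 10.19 ± 0.13 in siControl cells without serum (log2 fold change -1.21, adjusted p = 0.00086), and 10.85 ± 0.025 in siLAPTM4B cells and 11.54 ± 0.056 in siControl cells with 10% FBS (-0.70, adjusted p = 0.00046). *PLAU*, the urokinase gene, was higher after knockdown in cells without serum (0.43, adjusted p = 0.0049) and lower in cells with it (-0.46, adjusted p = 0.0015), and *BCL2L1*, a survival gene, was higher with 10% FBS (0.20, adjusted p = 0.046). Of 14 genes of the IL-1 family and its processing, *IL18* fell by 0.27 without serum (adjusted p = 0.039), and with 10% FBS 0 were called, 1 had an unadjusted p under 0.05 and 0 were called by the methods' t-test. The medians of these 7 lists lay between -0.043 and 0.044 after knockdown in either medium.

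Serum withdrawal gave more calls in these lists, as it did over all features. Of the 30 other targets, 8 fell in siLAPTM4B cells and 7 fell in siControl cells, where 11% and 12.9% of all features were called lower. Among them were *PLAU* (-1.07 in siLAPTM4B cells and -1.96 in siControl cells) and *PTGS2* (-1.87 in siLAPTM4B cells and -1.36 in siControl cells). In siLAPTM4B cells *PTX3*, of the same list, was 6.95 ± 0.25 without serum and 8.57 ± 0.034 with 10% FBS, a wider gap than that of *PLAU*. In siControl cells *PTX3* was 7.56 ± 0.18 without serum and 8.36 ± 0.16 with 10% FBS. Of the subunits and kinases, *NFKB2*, the precursor of p52, rose under both siRNAs (0.26 in siLAPTM4B cells and 0.40 in siControl cells), and *MAP3K14*, the kinase NIK that starts its processing, fell (-0.68 in siLAPTM4B cells and -0.65 in siControl cells). *NFKBIZ* rose by 0.45 in siLAPTM4B cells and 0.78 in siControl cells, and *BCL3*, another nuclear IkappaB protein, had -0.25 in siLAPTM4B cells and -0.37 in siControl cells. *IL11*, a cytokine of the IL-6 family, rose by 0.85 in siLAPTM4B cells and 0.71 in siControl cells, while *TNFSF10* had -1.01 in siLAPTM4B cells and -1.94 in siControl cells. All of these fold changes had adjusted p of at most 0.028. The levels of *TNFSF10* without serum, 5.48 to 5.56 in siLAPTM4B cells and 5.55 to 5.77 in siControl cells, were below the lower quartile of every array, so its differences between the media may be understated.

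**Figure D4:**
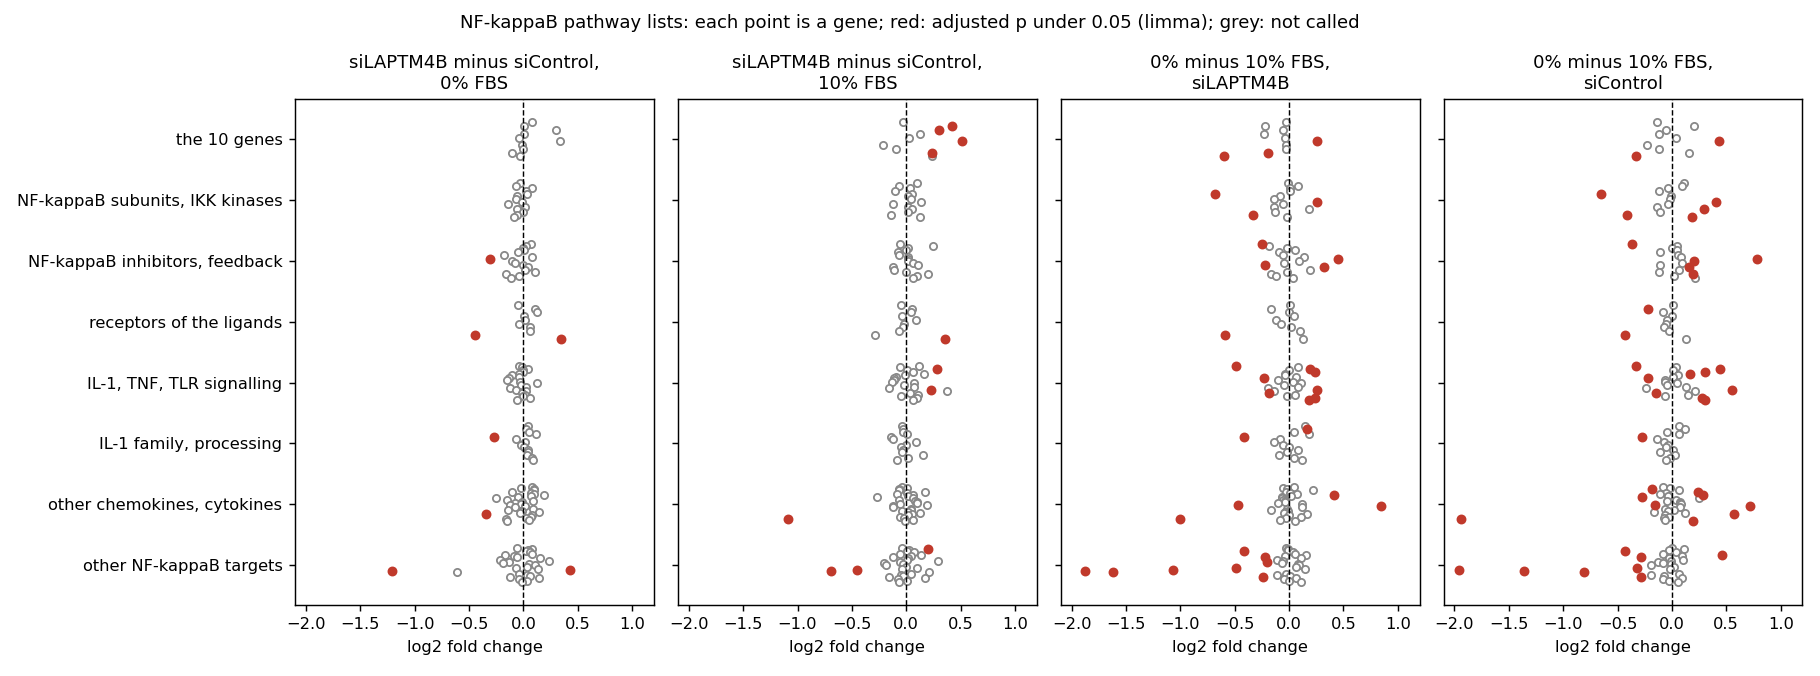
Log2 fold change of each measured gene in the 10 members and 7 further NF-kappaB pathway lists, in the 4 comparisons of 6 arrays; red points have an adjusted p under 0.05 (limma) and grey points do not. After knockdown the red points of the further lists are few and on both sides of 0, and after serum withdrawal red points appear in every list.

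The genes whose pattern over the 12 arrays was most like the mean pattern of *CXCL1*, *CXCL2*, *CXCL3* and *CXCL8* were *CD86*, *BCL2L1*, *RUBCN*, *APPL1* and *STXBP6*. Likeness was the root mean square difference from that pattern after each was centred on its own mean, which was 0.0262 for *CD86* and 0.0428 to 0.0523 for the others on the log2 scale. *CD86* was dim, with group means between 5.53 and 5.74, under the lower quartile of every array. The mean pattern joins chemokines that differed, as the group means of *CXCL8* spanned 0.77 and those of *CXCL3* 0.05. The chemokine pattern itself stood at 0.09 in siLAPTM4B cells and -0.06 in siControl cells without serum, and at 0.11 in siLAPTM4B cells and -0.13 in siControl cells with 10% FBS. It is given as a description over arrays that share their groups, with no test.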

How the data were processed

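Total RNA of the 12 Calu-6 cultures was hybridized to Affymetrix Human Gene ST arrays. The authors made the deposited log2 values from the scanned arrays with RMA, run in BRB-ArrayTools, per the study's methods and the labels; the probe set level and annotation version are not given in the sources used here. Of 33252 features, 19460 carry exactly 1 gene symbol (18417 genes; 19429 features matched RefSeq by gene ID), 1754 carry several and 12038 none. Per gene the feature with the highest mean was used. Groups were compared with limma 3.58.1 in R 4.3.3 on the 6 arrays concerned (12 for the interaction), with Benjamini-Hochberg adjustment over the 19460 features, calls at an adjusted p under 0.05, and exact permutation tests for single genes. The script was checked on simulated data. The number of arrays limits the precision. The methods name no array test. Student's t-test, named there for other experiments, is called the methods' t-test, and its calls here are at an adjusted p under 0.05. The threshold in the methods was an unadjusted p under 0.01. Deviations of same-numbered arrays had correlations over 0.1 in all 3 pairs between the siControl media (0.37, 0.13 and 0.20), so the replicate block is given there. In the other comparisons at least 1 pair was below 0.1. Replicates 1, 2 and 3 had 0.39, 0.069 and 0.18 after knockdown without serum. They had 0.37, 0.15 and -0.079 after knockdown with 10% FBS, and 0.32, 0.13 and -0.17 between the siLAPTM4B media. The pair of replicate 1 was thus at 0.32 or above in every comparison. Named genes were *LAPTM4B*, all members, up to 4 called genes per list and direction with the smallest adjusted p, and the 5 genes most like the CXC chemokines. The members and 11 further lists were chosen with earlier results of these data known. Alternatives were the replicate block, adjustment over all features, leaving out dim features (mean under 6.87), a robust prior variance that follows intensity, all 12 arrays in 1 fit, the t-test, other p thresholds, median centring, the mean of all rows of a gene, and leaving out each array.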

Additional observations from a re-analysis of the deposited data

Results flagged for a closer look

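The knockdown effect differed between the media by the test of the difference itself in 3 named genes, none of them among the 10 described above. For *LAPTM4B* the effect without serum minus that with 10% FBS was 0.33 on the log2 scale (limma interaction over 12 arrays, adjusted p = 0.035). For *TNFSF10* it was 0.93 (adjusted p = 0.0083), but its levels without serum, 5.48 to 5.77 over both siRNAs, were dim, and a knockdown effect there may be understated. For *PLAU* it was 0.89 (adjusted p = 6.1e-05).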

How the results depend on the processing

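Of 715 fold changes of the 10 genes under the alternatives, 638 kept their direction and their side of the threshold, 30 lost and 15 gained the threshold, and 32 changed sign, 0 of them a called value. Only median centring and the fits without 1 array could change a fold change. The other alternatives could move only its side of the threshold. With 10% FBS the count of 4 members called after knockdown became 1 when p was adjusted over all features and 1 by the methods' t-test, and lay between 1 and 3 when 1 array was left out. Without serum the count of 0 became 2 with a robust prior variance that follows intensity, 1 with all 12 arrays in 1 fit, 2 at an unadjusted p under 0.01 and 2 at one under 0.05, a threshold added after seeing the data. The count of 2 on serum withdrawal in siControl cells became 1 without dim features, because that filter left out *TNFAIP3* itself. This count became 4 with that prior variance, 1 by the t-test and 6 at an unadjusted p under 0.05. The count of 0 in the interaction became 1 with that prior variance, 1 at an unadjusted p under 0.01 and 3 at one under 0.05. Median centring turned *IL1B* without serum to 0.002 and *CXCL1* in the interaction to 0.001. Leaving out 1 array changed the sign of small values, with these ranges after knockdown without serum: *CXCL2* -0.025 to 0.055, *CXCL3* -0.094 to 0.011, *CCL20* -0.105 to 0.11, *IL1A* -0.055 to 0.042, *IL1B* -0.049 to 0.032 and *TNFAIP3* -0.101 to 0.064. *CXCL3* with 10% FBS ranged from -0.031 to 0.096. On serum withdrawal in siLAPTM4B cells the ranges were -0.108 to 0.019 for *CXCL3*, -0.052 to 0.012 for *CCL2*, -0.116 to 0.029 for *IL1A* and -0.07 to 0.036 for *IL1B*, and in siControl cells -0.116 to 0.043 for *CXCL1* and -0.022 to 0.082 for *CXCL3*. *CXCL1* in the interaction ranged from -0.098 to 0.061. The cause of these changes was not tested. The replicate block moved *IL1A* in siControl cells past the threshold (adjusted p = 0.014). On serum withdrawal in siLAPTM4B cells the same-numbered pairs had correlations of 0.32, 0.13 and -0.17. There the block lost *NFKBIA* (adjusted p = 0.060) and gained *CXCL2* (adjusted p = 0.050), as 5 other alternatives did. The block changed no other call of a member, and *CXCL8* after knockdown without serum had an adjusted p of 0.051 with it (limma). Over all features the 454 calls without serum became 134 adjusted over all features, 1126 with that prior variance, 687 with 12 arrays, 27 by the t-test, 1291 and 2938 at unadjusted p under 0.01 and 0.05, and 118 to 290 without 1 array. The 793 calls with 10% FBS became 279, 1686, 1370, 177, 1574, 3549 and 228 to 482 in the same order. The 4027 on serum withdrawal in siLAPTM4B cells became 6062 at an unadjusted p under 0.05. The 51 of the interaction became 84 with the block, 17 adjusted over all features, 79 without dim features, 163 with that prior variance, 682 and 2131 at the unadjusted thresholds, and 19 to 51 without 1 array. The signals of *CCL20*, *IL1A* and *IL1B* lay below the lower quartile on every array, and fold changes of signals near the background can understate a difference.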
